A study of Rattus norvegicus with 8 samples.

Results

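Of the 719 microRNAs (miRNAs) on the array, 4 with known roles in the brain were followed by name across every array: both arms of the miR-9a hairpin (rno-miR-9a-5p and rno-miR-9a-3p), rno-miR-128-3p and rno-miR-7a-5p. They were measured in C6 cells, a rat glioma line, which is a tumour model and not normal brain. Haloperidol was given at 2 µg/ml, risperidone at 4 µg/ml and clozapine at 25 µg/ml over 5 days, and control cells were untreated. Haloperidol is a first-generation antipsychotic, and risperidone and clozapine are second-generation ones. Each group had 2 arrays, described as biological repeats, so there were 8 single-colour (Cy3) Agilent arrays in all. All 8 sat on a single slide, where the column was also the treatment group and the row was also the replicate number. Slide column and drug therefore cannot be told apart, and neither can slide row and replicate.

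A miRNA pairs with messenger RNAs mainly through its seed, the bases near its 5′ end, and lowers the output of the messages it pairs with. In the developing brain miR-9 moves neural progenitors from division towards differentiation, in part by repressing Tlx and Hes1, and its 3p arm represses the REST cofactor CoREST. In the adult brain miR-128 is abundant in neurons, and in human glioma cells it represses the self-renewal factor BMI1. In human glioblastoma cells miR-7 represses EGFR and the insulin receptor substrate IRS2.

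The 4 mature sequences are shown because each carries a seed of its own, so that the 4 are distinct regulators and not 1 family. The seed (bases 2 to 8) is in capitals, written 5′ to 3′, from RefSeq (rat build GRCr8). All 4 array names matched the RefSeq table.
miR-9a-5p: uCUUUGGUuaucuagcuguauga
miR-9a-3p: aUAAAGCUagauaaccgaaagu
miR-128-3p: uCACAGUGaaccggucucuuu
miR-7a-5p: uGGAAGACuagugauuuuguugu
miR-7b: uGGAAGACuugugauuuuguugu
Among the 692 mature rat miRNAs of that table, only miR-7b shared a seed with any of the 4. It differs from miR-7a-5p by A10U, counted from the 5′ end with the base of miR-7a-5p first.

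Several loci give the same mature miRNA, so an array level is the sum over its loci. Both arms of miR-9a come from 3 hairpins, miR-128-3p from 2 and miR-7a-5p from 2. Probe sequences were not at hand, so whether a probe also binds a near-identical miRNA, such as miR-7b for miR-7a-5p, was not examined. One miR-9a hairpin and both miR-128 hairpins follow, with the mature arms in capitals, to show which arms the loci share.
Mir9-1: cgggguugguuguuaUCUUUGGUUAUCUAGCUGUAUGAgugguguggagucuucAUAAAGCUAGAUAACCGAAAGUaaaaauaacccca
Mir128-1: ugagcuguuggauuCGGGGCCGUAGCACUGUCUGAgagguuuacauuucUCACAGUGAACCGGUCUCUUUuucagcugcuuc
Mir128-2: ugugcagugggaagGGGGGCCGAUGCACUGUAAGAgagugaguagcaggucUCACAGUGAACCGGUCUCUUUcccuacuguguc
Mir9-1 lies at chr2:175974971-175975059 on the plus strand, inside the long non-coding RNA LOC100911992. Mir128-1 lies at chr13:42251884-42251965 on the plus strand within R3hdm1, and Mir128-2 at chr8:120963795-120963878 on the minus strand within Arpp21. The 3p arms of Mir128-1 and Mir128-2 are the same sequence, while their 5p arms differ and have probes of their own. One miR-7a-5p locus, Mir7-1, lies within Hnrnpk on chromosome 17. The array was designed on build rn4, so these GRCr8 positions come from RefSeq alone.

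Levels are log2 of the summed background-subtracted probe signal scaled to a 75th percentile computed within each array from the 292 probes well above background on all 8, so 0 is that percentile and -1 is 2-fold below it. All 4 miRNAs were detected on 8 of 8 arrays, and every spot of both probes of each was well above background. The deposited linear signal was 134 to 912 for rno-miR-9a-5p, 53.1 to 398 for rno-miR-9a-3p, 79.3 to 406 for rno-miR-128-3p and 185 to 1036 for rno-miR-7a-5p. Replicate spots of a probe had a median coefficient of variation between 4.61% (miR-9a-5p) and 5.49% (miR-9a-3p). With 2 arrays per group, the spread between the arrays of a group sets the errors given below. Levels of different miRNAs come from different probes and are not ranked against each other.

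Across the slide, the 75th percentile was 383 on risperidone replicate 2 and 686 to 1479 on the other arrays, and the number of miRNAs detected ran from 193 to 254. Control replicate 1 stood apart: its median correlation with the other arrays was 0.961, against 0.982 to 0.988 for the rest. The labelled cell type was checked with fixed marker lists. All 5 astrocyte and glioma markers, among them miR-21-5p and miR-125b-5p, were detected on all arrays. Of the 5 neuron markers, miR-129-5p was detected on 8 arrays and miR-153-3p on 5, while miR-124-3p, miR-137-3p and miR-138-5p were detected on 0. All 5 epithelial markers were detected on 0 arrays. Of the endothelial markers miR-126a-3p was detected on all arrays, while the markers of microglia and leukocytes (3 of 4 detected), erythrocytes and serum (1 of 2) and skeletal muscle (2 of 4) included none detected on all arrays. In bulk RNA, fewer cells with a miRNA and less of it per cell cannot be told apart.

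**Figure D1:**
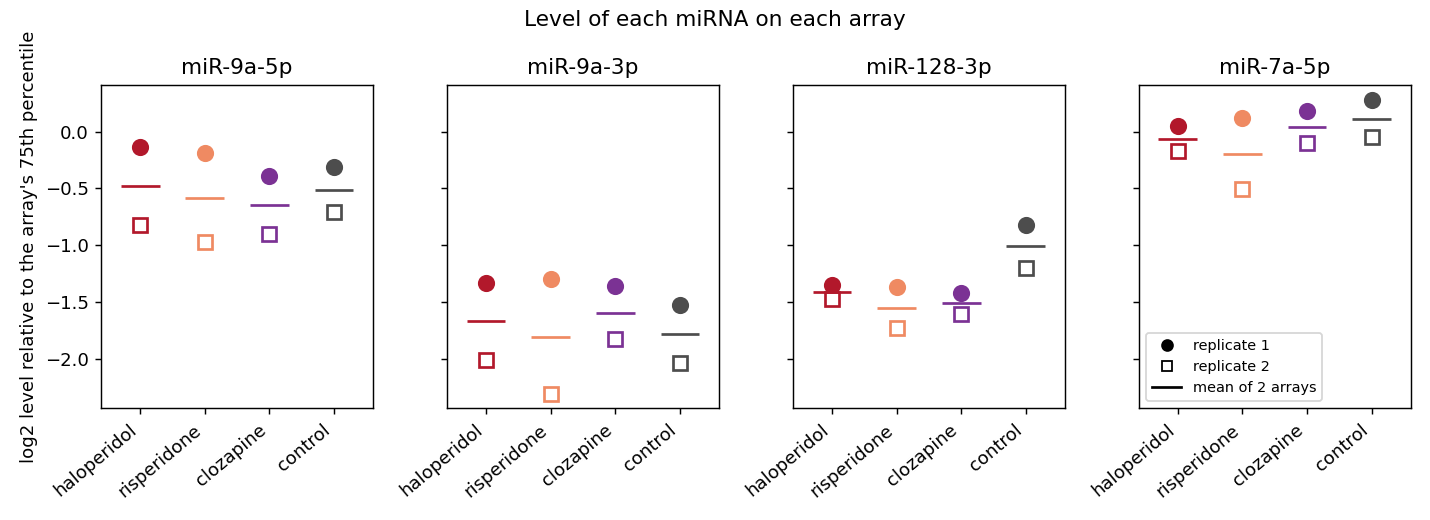
Level of the 4 miRNAs on each of the 8 arrays (y axis, log2 relative to the array's 75th percentile), by group on the x axis, with filled circles for replicate 1, open squares for replicate 2 and a line for the mean of the 2 arrays. The 6 drug arrays lie below both control arrays for miR-128-3p (-1.73 to -1.35 against -1.20 and -0.82), and replicate 2 lies below replicate 1 in every group for all 4 miRNAs.

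Each drug was first set against the untreated cells. miR-128-3p was the only 1 of the 4 whose drug arrays all lay outside the control arrays. Its level was -1.35 and -1.48 in haloperidol cells, -1.37 and -1.73 in risperidone cells and -1.42 and -1.61 in clozapine cells, against -0.82 and -1.20 in control cells (replicate 1, then 2). All 6 drug arrays were below both control arrays. Such a separation was common on these arrays: 32.9% of the 243 tested miRNAs lay below both controls on both haloperidol arrays, 32.9% on both risperidone arrays, 34.2% on both clozapine arrays and 20.2% on all 6 drug arrays. These shares include miRNAs such as miR-132-3p, detected only on the control arrays and at the floor (log2 -6.21) on all 6 drug arrays. Shares over only the miRNAs detected on all arrays were not computed. The separation of miR-128-3p was thus shared by many tested miRNAs, some of them only through the floor.

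In size, miR-128-3p was 1.32-fold lower under haloperidol (log2 fold change -0.40, SE 0.20), 1.45-fold lower under risperidone (-0.54, SE 0.20) and 1.42-fold lower under clozapine (-0.50, SE 0.20). None passed limma's test after Benjamini-Hochberg adjustment over all 243 tested miRNAs, with adjusted p of 0.576, 0.453 and 0.333. The unadjusted p was 0.101, 0.0417 and 0.0534 in the same order. Over all tested miRNAs, 7% had an unadjusted p under 0.05 for haloperidol, 9.05% for risperidone, 14.8% for clozapine and 15.2% for the mean of the drugs. The mean of the 3 drugs was 1.40-fold below control (log2 -0.48, SE 0.17, 95% confidence interval -0.90 to -0.06, adjusted p 0.301). The 3 comparisons share the same 2 control arrays, so their similar values are not separate evidence.

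With the main scaling, the tested miRNAs as a whole were also somewhat lower in drug-treated cells. For haloperidol their median log2 fold change was -0.15 and 60.5% of them were below 0. For risperidone these values were -0.15 and 60.5%, for clozapine -0.17 and 66.3%, and for the mean of the drugs -0.16 and 63%. Relative to that median, miR-128-3p was lower by a further log2 of -0.25, -0.39 and -0.33. With the scaling percentile taken over all probes, the risperidone and clozapine values of miR-128-3p turned to 0.046 and 0.15, while relative to the median of all miRNAs they stayed below it, at -0.30 and -0.28. The median of all tested miRNAs moved to 0.35 and 0.42 in those 2 comparisons under that scaling. With cyclic loess the medians were -0.034, 0.0007 and -0.014 for haloperidol, risperidone and clozapine, and with normexp -0.11, 0.37 and 0.55. The main medians also include miRNAs detected only in control cells and at the floor under the drugs. As a baseline they thus depend on the filter, the floor and the scaling.

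Control replicate 1, the array that stood apart, held the highest miR-128-3p level of the 8. Without it the log2 fold change was -0.21 for haloperidol, -0.35 for risperidone, -0.31 for clozapine and -0.29 for the mean of the drugs. The medians of all tested miRNAs were then -0.11, -0.13, -0.18 and -0.13 in the same order. In each of these comparisons miR-128-3p thus lay nearer to the median than with all arrays. Within replicate 1 the 3 drugs differed from control by -0.53, -0.55 and -0.60, and within replicate 2 by -0.28, -0.53 and -0.41. Both probes gave near-equal values, at -0.40 and -0.40 for haloperidol, -0.54 and -0.54 for risperidone and -0.54 and -0.48 for clozapine.

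Marker values from the same arrays are given beside these. The summed level of the oligodendrocyte markers (3 of 4 detected on all arrays, miR-219-2-3p on none) was 1.03 to 1.39 in haloperidol cells, 0.95 to 1.63 in risperidone cells and 1.18 to 1.25 in clozapine cells, against 0.51 to 0.82 in control cells, as linear multiples of the 75th percentile. Most of that sum was miR-338-3p (log2 fold change 1.02, 1.09 and 1.08 for haloperidol, risperidone and clozapine, adjusted p 0.576, 0.453 and 0.326). Its partner arm miR-338-5p had -0.90, -1.18 and -1.26, miR-219-5p had 0.82, 0.59 and 0.10, and 0 of the 3 passed with any drug. The summed skeletal muscle markers, near the floor, were at 0.054 to 0.130 in haloperidol cells, 0.054 to 0.087 in risperidone cells and 0.054 to 0.094 in clozapine cells, against 0.106 to 0.170 in control cells. The part of either list in the miR-128-3p values was not tested.

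**Figure D2:**
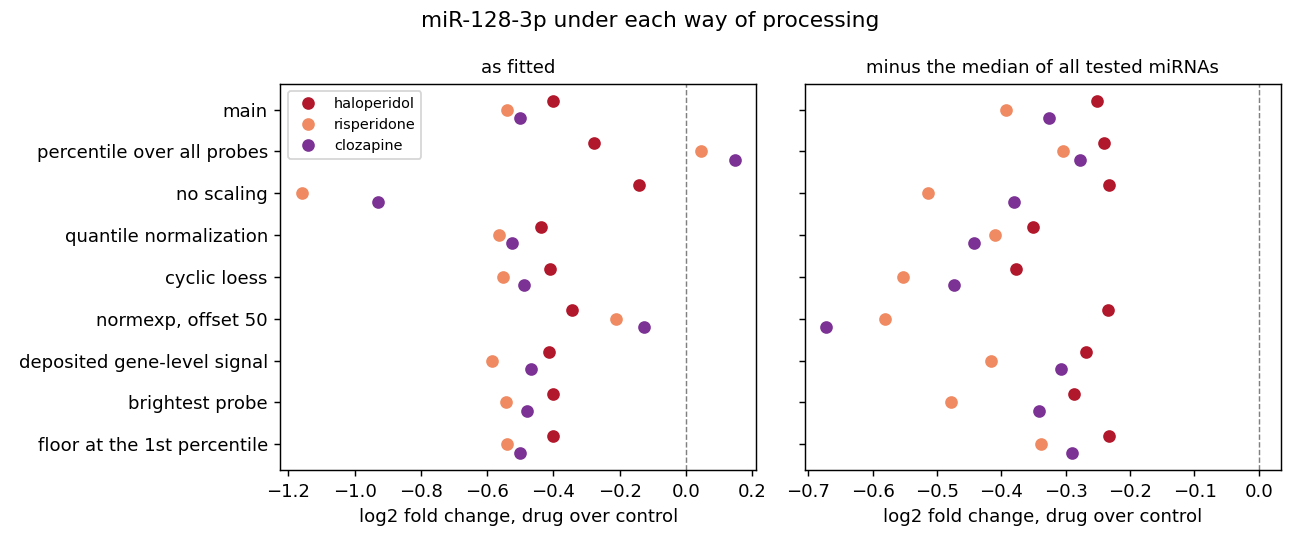
Log2 fold change of miR-128-3p for each drug over control (x axis) under 9 ways of processing (rows), as fitted on the left and after subtracting the median of all tested miRNAs on the right. As fitted, risperidone (0.046) and clozapine (0.15) lie above 0 only with the percentile over all probes, and relative to the median all points lie below 0.

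miR-7a-5p, the member with the smallest spread over the 8 arrays (SD 0.25), differed little between groups. Its level was 0.05 and -0.17 in haloperidol cells, 0.12 and -0.51 in risperidone cells and 0.18 and -0.10 in clozapine cells, against 0.28 and -0.05 in control cells. The drug and control arrays overlapped for each drug. The log2 fold changes were -0.18 for haloperidol, -0.31 for risperidone and -0.075 for clozapine (SE 0.26 each), with adjusted p of 0.733, 0.552 and 0.924 in limma. Each of the 6 drug arrays lay below the control array of the same replicate number, at log2 differences of -0.05 to -0.46, and the same was so for miR-128-3p. This held for 35.4% of the tested miRNAs, a share that includes miRNAs at the floor on all 6 drug arrays, such as miR-132-3p. For miR-7a-5p the intervals reach from -0.84 to 0.49, from -0.97 to 0.35 and from -0.74 to 0.59.

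miR-9a-5p had overlapping levels in all groups. It stood at -0.14 and -0.82 in haloperidol cells, -0.19 and -0.98 in risperidone cells and -0.39 and -0.90 in clozapine cells, against -0.31 and -0.71 in control cells. The log2 fold changes of 0.03, -0.07 and -0.13 were each well under their SE of 0.39 (adjusted p 0.987, 0.933 and 0.898).

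Its partner arm miR-9a-3p was at -1.33 and -2.01 in haloperidol cells, -1.30 and -2.31 in risperidone cells and -1.36 and -1.83 in clozapine cells, against -1.53 and -2.04 in control cells. These groups overlapped as well. The log2 fold changes were 0.11, -0.02 and 0.19 (SE 0.44 each, adjusted p 0.927, 0.979 and 0.864). The 95% intervals of both arms span about 1 log2 unit either side of 0, from -1.12 to 1.29 for miR-9a-3p and from -1.11 to 1.01 for miR-9a-5p. These intervals hold the difference between the repeats as spread.

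**Figure D3:**
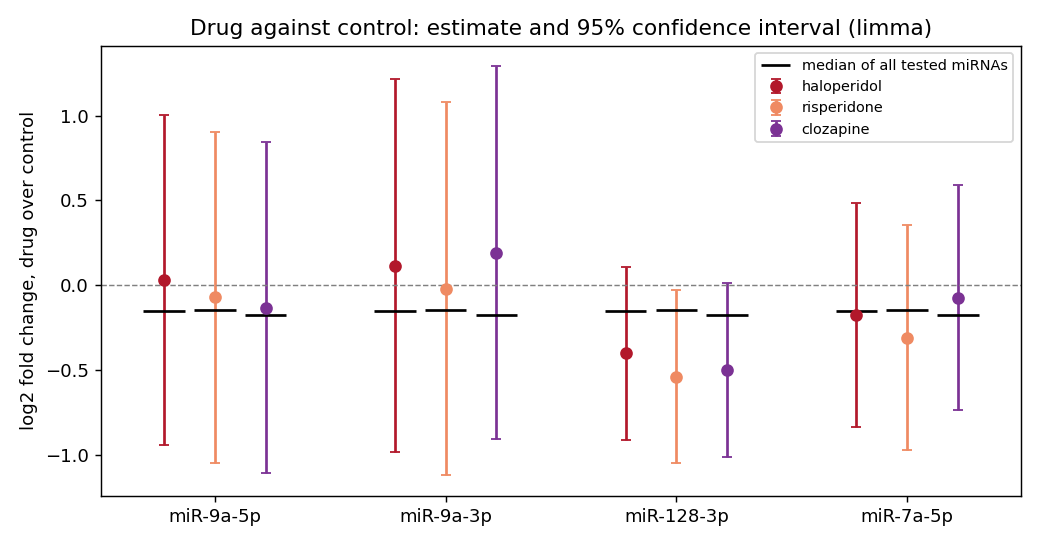
Log2 fold change of each drug over control (y axis) for the 4 miRNAs, with points for the limma estimates, bars for 95% confidence intervals and short black lines for the median of all 243 tested miRNAs. The estimates for miR-128-3p (-0.40, -0.54 and -0.50) lie below the medians near -0.15, and only the risperidone interval of miR-128-3p (-1.05 to -0.03) leaves out 0.

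In all, 0 of the 4 miRNAs passed the adjusted threshold with any drug, and neither did any of the other tested miRNAs (0% of 243 in each comparison). An F test over the 4 groups gave adjusted p of 0.778 for miR-128-3p, 0.886 for miR-7a-5p and 0.989 for both arms of miR-9a, with 0% of 243 called and 3.29% at an unadjusted p under 0.05.

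The drugs were also set against each other, each at its own concentration. The 12 log2 differences of the 4 miRNAs ran from -0.16 (miR-9a-5p, clozapine over haloperidol) to 0.24 (miR-7a-5p, clozapine over risperidone). The smallest unadjusted p among them was 0.409. Over all tested miRNAs, 0% had an unadjusted p under 0.05 for risperidone over haloperidol, 1.23% for clozapine over haloperidol and 1.65% for clozapine over risperidone, and 0% were called. For miR-128-3p the order of means was risperidone (-1.55 ± 0.25), clozapine (-1.51 ± 0.13), haloperidol (-1.41 ± 0.09) and control (-1.01 ± 0.27), with SD and n = 2 each. No drug differed from its neighbour in that order by limma's test. The interval for risperidone over haloperidol was -0.65 to 0.37, and that for clozapine over risperidone was -0.47 to 0.55.

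The arrays numbered replicate 2 were also set against those numbered replicate 1, a comparison added after the levels of the 4 were seen. Nothing in the labels says that a number marks a repeat shared by the groups, and slide row runs with it. For miR-9a-5p, miR-9a-3p and miR-7a-5p the difference between replicate numbers was larger than each of the drug differences above. For miR-128-3p it was smaller. In every group all 4 were lower on the replicate 2 array than on the replicate 1 array, a pattern found for 30.5% of the 243 tested miRNAs. For miR-9a-5p, miR-9a-3p and miR-7a-5p all 4 replicate 2 arrays lay below all 4 replicate 1 arrays, which held for 9.88% of the tested miRNAs. The arrays of miR-128-3p overlapped.

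In a limma fit with group and replicate as terms, miR-9a-5p was lower in replicate 2 by a log2 of -0.60 (SE 0.09, adjusted p 0.0333) and miR-9a-3p by -0.67 (SE 0.12, adjusted p 0.0385). The values were -0.36 for miR-7a-5p (SE 0.10, adjusted p 0.0814) and -0.26 for miR-128-3p (SE 0.08, adjusted p 0.097), which did not pass. Over all tested miRNAs 14.8% were called, 32.5% had an unadjusted p under 0.05, and the median difference was -0.10. Both miR-9a calls were lost when any 1 of the 8 arrays was left out, with adjusted p between 0.0616 and 0.149, while the differences stayed between -0.53 and -0.73. They were also lost with 5 other settings, and with the percentile over all probes the differences shrank to -0.01 and -0.08.

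By group, the gap of miR-9a-5p between replicate 2 and replicate 1 was -0.69 in haloperidol cells, -0.79 in risperidone cells, -0.51 in clozapine cells and -0.40 in control cells. For miR-9a-3p it was -0.68, -1.01, -0.47 and -0.51 in the same order. The median absolute gap of all tested miRNAs was 0.24 in haloperidol cells, 0.36 in risperidone cells, 0.33 in clozapine cells and 0.43 in control cells. In haloperidol and risperidone cells both arms thus moved by more than 2 times the median gap. The drug comparisons above count this gap as spread between the arrays of a group.

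Other measures differed between the replicate numbers too. The 75th percentile was 383 to 954 on replicate 2 arrays and 793 to 1479 on replicate 1 arrays, and 193 to 242 miRNAs were detected on replicate 2 arrays against 233 to 254 on replicate 1 arrays. The summed level of the neuron markers (2 of 5 detected, mostly miR-129-5p) was 0.55 to 0.73 on replicate 2 arrays and 0.31 to 0.43 on replicate 1 arrays. Slide row runs with replicate number, and the part of these measures in the miR-9a difference was not tested.

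**Figure D4:**
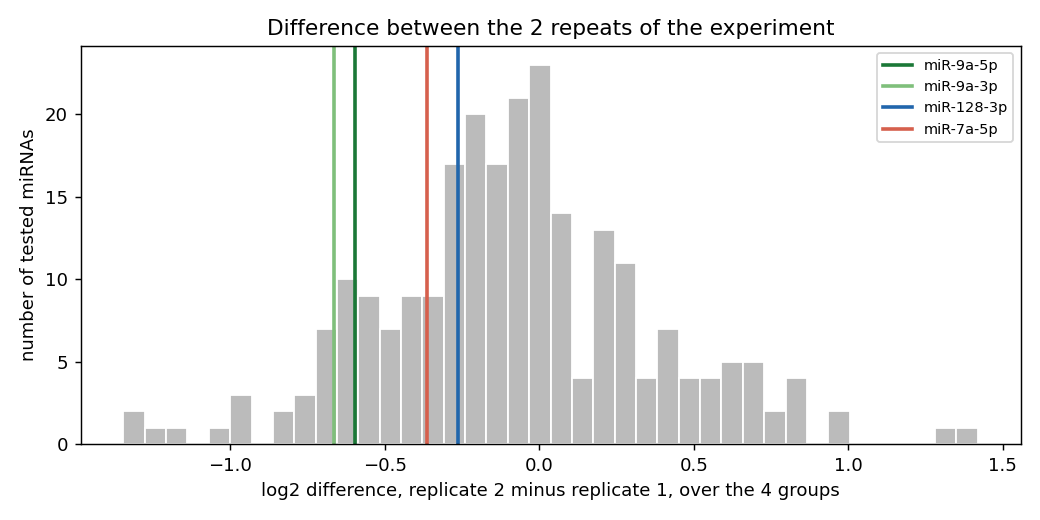
Histogram of the log2 difference between replicate 2 and replicate 1 (x axis) over the 243 tested miRNAs (y axis, number of miRNAs), with a vertical line for each of the 4. Both arms of miR-9a lie in the lower tail, at -0.60 and -0.67, against a median of -0.10 over all tested miRNAs.

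Both arms of miR-9a are cut from the same 3 hairpins. Their difference within an array cancels a change that both arms share and a scaling factor of the whole array. Processing that depends on the level, such as quantile normalization, is not cancelled. The raw difference depends on the probes, so only its change between groups is read. The log2 difference, 5p minus 3p, was 1.20 and 1.19 in haloperidol cells, 1.11 and 1.33 in risperidone cells and 0.97 and 0.93 in clozapine cells, against 1.21 and 1.33 in control cells. Both clozapine arrays lay below the other 6.

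A limma fit over the 29 hairpins with both arms detected on all arrays was added after this was seen. In it the clozapine value differed from control by -0.32 (SE 0.24, adjusted p 0.485), the haloperidol value by -0.08 and the risperidone value by -0.05. Of these hairpins 20.7% had both clozapine arrays below both control arrays, 10.3% had an unadjusted p under 0.05 and 0% were called. The share with both clozapine arrays below every other array, as for miR-9a, was not computed. The 95% interval of the clozapine value was -0.90 to 0.25.

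**Figure D5:**
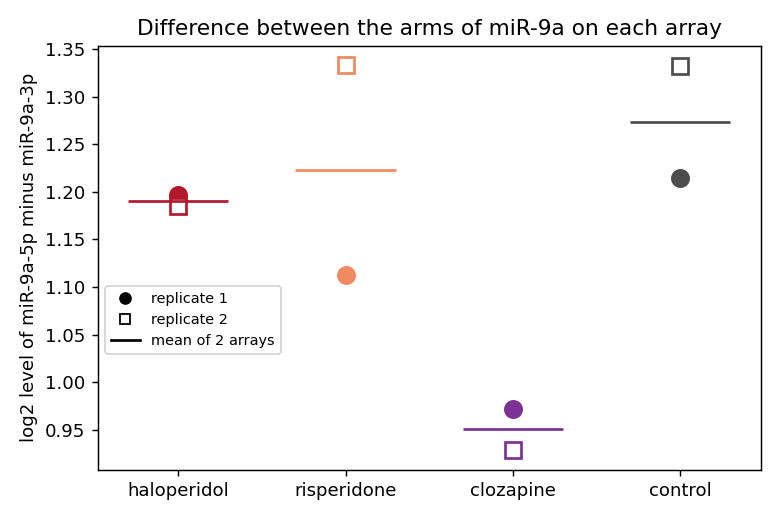
Log2 level of miR-9a-5p minus that of miR-9a-3p on each array (y axis, which does not start at 0), by group, with filled circles for replicate 1, open squares for replicate 2 and lines for means. The 2 clozapine arrays (0.97 and 0.93) lie below the other 6 arrays (1.11 to 1.33).

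The other products of these loci were mostly undetected. Of 7 further arms and paralogues on the array, miR-9b-5p, miR-9b-3p, miR-7a-2-3p, miR-128-1-5p and miR-128-2-5p were detected on 0 arrays. In RefSeq, miR-9b is the product of the opposite strand: miR-9b-3p is the exact reverse complement of bases 4 to 21 of miR-9a-5p, and miR-9b-5p that of bases 1 to 19 of miR-9a-3p. With both 5p arms of miR-128 undetected, how miR-128-3p divides between its 2 loci was not measured.

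miR-7a-1-3p, the partner arm from the Mir7-1 hairpin, was detected on all 8 arrays. Its level was -3.51 and -3.94 in haloperidol cells, -3.54 and -5.26 in risperidone cells and -3.69 and -4.30 in clozapine cells, against -3.22 and -3.60 in control cells. The log2 fold changes were -0.31, -0.99 and -0.58 (adjusted p 0.794, 0.516 and 0.653), and the lowest value was that of risperidone replicate 2. miR-7b, the seed mate of miR-7a-5p, was detected on 6 arrays near the floor (-6.21), and all its replicate 2 values were at the floor. Its log2 fold changes were -0.31, -0.42 and -0.17 (adjusted p 0.680, 0.552 and 0.849). Whether its faint signal holds binding of miR-7a-5p to its probes was not examined.

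The array held 19 other neural miRNAs, of which 8 were detected and tested, and 0 passed with any drug. Their median log2 fold change was -0.13, -0.15 and -0.15 for haloperidol, risperidone and clozapine, with 5, 6 and 6 of the 8 below 0. Only 6 of the 8 were detected on all arrays. The risperidone and clozapine medians fall between miR-132-3p and miR-153-3p (each -0.15), both at the floor on all arrays of those drugs. The medians over all tested miRNAs were close, but the floor enters them too. The list holds the near-identical 3p arms of miR-129. Of these, miR-129-2-3p was at 1.14 and 2.04 in haloperidol cells, 1.09 and 1.90 in risperidone cells and 1.26 and 1.81 in clozapine cells, against 1.63 and 2.23 in control cells.

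It was thus higher on the replicate 2 array in every group, opposite to miR-9a. miR-212-3p, made from a CREB-responsive locus, had log2 fold changes of 0.18, 0.62 and 0.35 (adjusted p 0.733, 0.453 and 0.575). miR-135b-5p had values of -0.11, 0.18 and 0.27, and miR-129-5p of -0.29, -0.19 and -0.27, each with an adjusted p of at least 0.788.

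Of 14 other miRNAs reported to restrain glioma growth, 13 were on the array and 8 were tested, and 0 passed. Their medians were -0.14, -0.14 and -0.09, with 6, 5 and 6 of 8 below 0. miR-34a-5p, a p53 target, was at 1.29 and 1.15 in haloperidol cells, against 0.33 and 0.77 in control cells (log2 fold change 0.67, adjusted p 0.573). Its log2 fold change was 0.32 with risperidone and 0.06 with clozapine (adjusted p 0.516 and 0.919). miR-101a-3p, which represses the histone methyltransferase Ezh2, had log2 fold changes of 0.94 with clozapine to 1.15 with haloperidol (adjusted p 0.516 to 0.576 over the 3 drugs), with control replicate 1 alone at -3.62 and the other arrays at -2.29 to -1.35. miR-125a-5p had values of -0.39, -0.30 and -0.45, miR-181a-5p of -0.43, -0.17 and -0.23, and miR-146a-5p of -0.12, -0.30 and -0.10. miR-181a-5p is also 1 of the astrocyte and glioma markers.

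The profile of each of the 4 over the 8 arrays was compared with those of the 184 other miRNAs detected on all arrays, as a description only, since all values share arrays, scaling and the difference between repeats. The 2 arms of miR-9a followed each other closely (Pearson r 0.92, n = 8 arrays). The profiles most like miR-9a-5p were let-7i-5p (0.97), miR-335 (0.95) and miR-384-5p (0.93). For miR-9a-3p they were miR-9a-5p (0.92), miR-140-3p (0.90) and miR-335 (0.89). For both arms the most opposite profile was that of miR-129-5p, at -0.94 for miR-9a-5p and -0.98 for miR-9a-3p.

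For miR-128-3p the most similar profiles were miR-15b-3p (0.97), miR-98-5p (0.96) and miR-146b-5p (0.96), and the most opposite was miR-21-3p (-0.92). For miR-7a-5p they were miR-322-3p (0.97), miR-30c-5p (0.94) and miR-674-3p (0.94), with miR-211-3p most opposite (-0.88). High values were not rare: of the 184, 17 had r above 0.9 with miR-128-3p and 10 with miR-7a-5p. With miR-9a-5p the number was 6 and with miR-9a-3p it was 1. Between the 4, r was lowest for miR-128-3p with miR-9a-3p (0.42).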

How the data were processed

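The deposited array files hold intensity values, linear Cy3 signals made with Agilent Feature Extraction 10.7.3.1 per the file headers, and flags of unit other (0 or 1), also deposited by the authors. The files are not scaled between arrays. Per the labels, 100 ng of total RNA was labelled per array.

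Outlier spots were dropped, the background-subtracted signal was averaged within each probe, and the probes of a miRNA were added up. Each array was then scaled to its own 75th percentile, taken over the 292 probes well above background on every array. Scaled values were floored (5th percentile of detected values) before log2. Testing was limited to miRNAs detected on both arrays in 1 group or more: 243 of 719, with 476 left out. All 8 arrays entered a single limma 3.58.1 fit (R 4.3.3; lmFit and eBayes, 4 residual and 5.42 total degrees of freedom), two-sided, adjusted by Benjamini and Hochberg over all 243, threshold 0.05. Permuting 2 arrays against 2 allows no exact p under 0.333, so no permutation test was run. The test was checked on simulated data.

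The 4 miRNAs and the lists were chosen with earlier results of these data known. The 4 are given in every array. From each list, up to 5 miRNAs detected on most arrays and then highest in mean are named, and for likeness the 3 highest and the lowest correlations. The lists were other arms and paralogues, other neural miRNAs, other glioma-restraining miRNAs, and markers of neurons, oligodendrocytes, astrocytes and glioma, microglia and leukocytes, erythrocytes and serum, endothelium, skeletal muscle and epithelium. Alternatives changed the scaling, background correction, probe summary, floor, filter, arrays in the fit, replicate block and variance model, and left out each array. Cyclic loess was fitted over the 243 tested miRNAs. Normexp (offset 50) used spot and background medians.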

Additional observations from a re-analysis of the deposited data

How the results depend on the processing

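The drug comparisons called 0 miRNAs in the main analysis. Without any detection filter they called 1 with risperidone and 1 for the mean of the drugs, and leaving out each array gave 0 to 5 with haloperidol, 0 to 6 with risperidone, 0 to 7 with clozapine and 0 to 7 for the mean. The highest counts all came without control replicate 2. None of these calls was any of the 4 miRNAs. Replicate numbers are shared between groups, but nothing in the labels says that they mark a shared batch. Deviations of same-numbered arrays correlated at 0.13 to 0.79 over the 6 pairs of groups. With the replicate block the counts were 0, 1, 2 and 7, and miR-128-3p had adjusted p of 0.222, 0.109, 0.0993 and, for the mean of the drugs, 0.0841. With it the SE of a drug difference was 0.13 for miR-9a-5p, 0.17 for miR-9a-3p, 0.11 for miR-128-3p and 0.14 for miR-7a-5p, smaller than without it, and the block changed no call of the 4 miRNAs.

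Directions turned as follows, the cause not being tested beyond what each setting does. With the percentile over all probes, risperidone against control gave 0.046 for miR-128-3p, 0.28 for miR-7a-5p, 0.52 for miR-9a-5p and 0.57 for miR-9a-3p. Clozapine gave 0.15 for miR-128-3p, 0.57 for miR-7a-5p and 0.52 for miR-9a-5p, and the mean of the drugs 0.27 for miR-7a-5p and 0.40 for miR-9a-5p. Replicate 2 against replicate 1 gave 0.32 for miR-128-3p and 0.22 for miR-7a-5p. Without scaling, miR-9a-3p was at -0.24 with clozapine and -0.17 for the mean, and miR-7a-5p at 0.084 with haloperidol. With normexp, miR-9a-5p was at 0.074 with risperidone, 0.022 with clozapine and 0.040 for the mean, miR-9a-3p at 0.27 with risperidone and miR-7a-5p at 0.011 with clozapine. With quantile normalization miR-9a-5p was at -0.14 with haloperidol. In replicate 1 alone miR-9a-5p was at 0.12 with risperidone and 0.075 for the mean, and miR-9a-3p at 0.23 with risperidone. In replicate 2 alone miR-9a-5p was at -0.11 with haloperidol and miR-9a-3p at -0.0074 for the mean.

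Leaving out each array in turn moved miR-9a-5p from -0.31 to 0.37 with haloperidol, -0.46 to 0.32 with risperidone, -0.39 to 0.12 with clozapine and -0.26 to 0.14 for the mean. It moved miR-9a-3p from -0.23 to 0.45, -0.52 to 0.48, -0.067 to 0.45 and -0.16 to 0.35 in the same order. For miR-7a-5p it gave -0.62 to 0.0014 with risperidone and -0.24 to 0.092 with clozapine. miR-128-3p stayed below 0 with every array left out.

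The 36 miRNAs called between the replicate numbers became 11 with the deposited gene-level signal and 13 with the floor at the 1st percentile. They became 0 without scaling, 0 with normexp, 0 without a detection filter and 0 to 8 with an array left out. The miR-9a calls were lost in all of these except the gene-level signal, and also with the percentile over all probes (adjusted p 0.985 for miR-9a-5p and 0.840 for miR-9a-3p). The arm difference of miR-9a against control was -0.25 (haloperidol), -0.23 (risperidone) and -0.55 (clozapine) with quantile normalization, -0.19 for risperidone with normexp, and -0.16 to 0.060 for risperidone with an array left out. Every other setting listed for the 4 miRNAs kept direction and call.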
